A study of Mus musculus with 46 samples.

Results

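The auxiliary subunits of voltage-gated calcium channels were followed through 7 types of cortical inhibitory neuron, as counts of 7 genes: the alpha2delta genes Cacna2d1, Cacna2d2 and Cacna2d3, and the beta genes Cacnb1, Cacnb2, Cacnb3 and Cacnb4. They were picked by name from the 23335 genes of the deposited table, and all 7 were present and passed the filter on low counts. The table covers 584 hand-picked GABAergic neurons from the frontal cortex of mice. A library joins 7 to 16 such cells, told apart by their barcodes, and there were 46 libraries. Levels are CPM, the counts of a gene scaled to the total of its library, and means with SD are over replicates, where a replicate is the summed cells of an animal.

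Every animal was labelled wild type, with no experimental treatment apart from the tamoxifen that switches on the Nkx2.1-CreER driver, and red fluorescent cells were picked by hand from dissociated slices. Martinotti cells came from layer 2/3 of females aged 35 days carrying Sst-Flp, CR-Cre and Ai65 (62 cells, 4 libraries, n = 2), where Ai65 is a reporter that needs both recombinases. Interneuron-selective cells came from layer 2/3 of females aged 32 days with Vip-Flp, CR-Cre and Ai65 (63 cells, 4 libraries, n = 2). CCK basket cells came from males aged 39 to 40 days with Vip-Flp, CCK-Cre and Ai65 (64 cells, 4 libraries, n = 2). Long-projecting cells came from males aged 28 to 29 days with Sst-Flp, Nos1-Cre and Ai65 (136 cells, 9 libraries, n = 4). PV basket cells came from both sexes at 58 to 83 days with Pv-iresCre and the Cre reporter Ai14 (127 cells, 16 libraries, 4 labelled animals counted as n = 2). Their libraries agreed in pairs, as described below, so these cells and libraries may not all be distinct. Chandelier cells were labelled with Nkx2.1-CreER and Ai14, in deep layers of males aged 34 days (52 cells, 4 libraries, n = 2) and at the upper layer border of females aged 40 to 58 days (80 cells, 5 libraries, n = 2, with 1 library labelled Ai15). Type, age, sex and flow cell cannot be told apart in most comparisons, because ages overlapped little between types and a flow cell was shared in only 2 cases, by Martinotti and interneuron-selective cells and by long-projecting and upper chandelier cells. The labels do not say whether the animals of a type were littermates. They number 18 animals where the series text mentions 4, and 1 upper chandelier animal carries both 40 and 58 days, so the replicates rest on labels that disagree in part.

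Libraries held 530927 to 4568242 counts and replicates 1203737 to 12324142, and each of the 16 cell barcodes recurred in more than 1 library. The inhibitory neuron genes Gad1 (type means 525.6 to 2357 CPM), Gad2 (277 to 1209 CPM) and Slc32a1 (613 to 2489 CPM) were present in every type, and markers of excitatory neurons summed to at most 350 CPM in a library. Some libraries went against their labels or carried RNA of other cells. Deep chandelier library 4 held Vip at 1918 CPM, against 0 to 2.75 CPM in the other deep chandelier libraries. It also held Cck at 1375 CPM, against 73.6 to 342 CPM in the others. Deep chandelier library 1 held no Pvalb count. Upper chandelier library 1 held Vip at 374 CPM, and oligodendrocyte markers summed to 4349 CPM in long-projecting library 2 and to 3051 CPM in interneuron-selective library 3, against at most 259 CPM elsewhere. Every call on the 7 genes was refitted without each of these 5 libraries in turn. The calls that were lost are named with their results, and the other calls held. Deep chandelier library 3 was not left out on its own. It held Nos1 at 45.4 CPM, against 1.43 to 1.65 CPM in the other deep chandelier libraries. Its excitatory neuron markers summed to 208 CPM, against 9.34 to 22.2 CPM in those libraries.

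A high-voltage-activated calcium channel consists of a pore-forming alpha1 subunit, a beta subunit bound to its intracellular loop and an alpha2delta subunit anchored at the outer face of the membrane. Beta subunits help the pore reach the surface and set how readily it opens and inactivates, while alpha2delta subunits raise channel number at the membrane and at release sites and also take part in synapse formation. In inhibitory neurons these channels supply the calcium that triggers GABA release.

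Of the 7 genes, 5 differed between types in the joint edgeR test (adjusted p under 0.05): all 3 alpha2delta genes, Cacnb2 and Cacnb4. Over all 15533 genes tested the same test called 25.0%. The adjusted p was 6.52e-06 for Cacna2d1, 0.000467 for Cacna2d2, 0.000113 for Cacna2d3, 0.0126 for Cacnb2 and 4.28e-05 for Cacnb4. Cacnb3 (adjusted p 0.0920) and Cacnb1 (adjusted p 0.470) did not pass. Without CCK basket replicate 2 the adjusted p of Cacnb2 was 0.0518, and no other joint call was lost when a single replicate was left out.

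**Figure D1:**
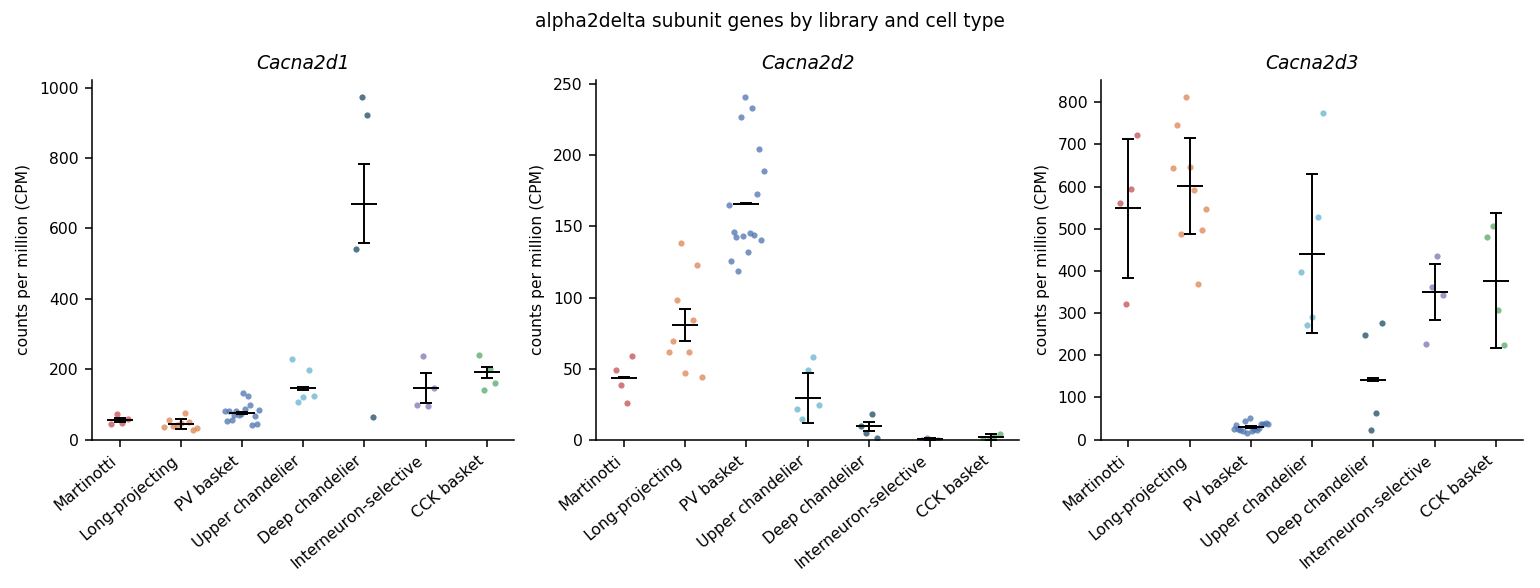
Levels of the 3 alpha2delta genes in CPM (vertical axis, linear, own scale per gene) in each type. Points are libraries, and bars are the mean ± SD over replicates (n = 4 in long-projecting cells, n = 2 in the others). Cacna2d1 stood highest in 3 of the 4 deep chandelier libraries. By mean, Cacna2d2 was highest and Cacna2d3 lowest in PV basket cells, though for each gene libraries of another type lay within the PV basket range.

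Cacna2d1 encodes alpha2delta-1, the main target of the drugs gabapentin and pregabalin. It was highest in deep chandelier cells, at 543, 974, 922 and 63.1 CPM in libraries 1 to 4. The first 3 of these lay above every library of the other 6 types, the highest of which reached 239 CPM in CCK basket cells, and library 4, which is the one that held Vip, lay within the range of the others. The mean was 671 ± 113 CPM (SD, n = 2), 6.08-fold the mean of the other 6 type means. Libraries 3 and 4 came from 1 animal and were summed to a replicate at 591 CPM, so this SD does not show their difference. The fitted log2 fold change was 3.06 ± 0.20 (SE, adjusted p 1.34e-06), with a spread estimated over all types. Without library 4 the deep chandelier mean was 836 ± 121 CPM and the log2 fold change 3.41 (adjusted p 5.55e-07), and without library 1 these were 782 ± 271 CPM and 3.52 (adjusted p 2.43e-06).

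The remaining types fell in a lower band of Cacna2d1. CCK basket libraries held 239, 142, 200 and 161 CPM (mean 191 ± 15.8), interneuron-selective libraries 97.9, 238, 95.2 and 148 CPM (147 ± 41.3), and upper chandelier libraries 229, 108, 121, 197 and 125 CPM (146 ± 3.83). The replicates of the latter 2 types overlapped, whereas those of CCK basket cells lay above both. Here and below, overlap of replicates only describes types already ordered by these same means, with n = 2 in most. How often replicates stand apart over all genes was not counted. PV basket libraries ranged from 42.4 through a median of 76.1 to 132 CPM (76.2 ± 3.80). Martinotti libraries (44.8, 72.5, 46.4 and 57.4 CPM, mean 56.0 ± 5.10) and long-projecting libraries (lowest 27.1, median 41.0, highest 74.7 CPM, mean 45.6 ± 14.0) formed the low end, with overlapping replicates. Against the mean of the other 6 types, Cacna2d1 was lower in long-projecting cells (log2 -1.65 ± 0.21, adjusted p 0.000128) and in Martinotti cells (-1.43 ± 0.28, adjusted p 0.0102). The Martinotti call was lost without Martinotti replicate 2 (adjusted p 0.114) and with the spread weighted by type in limma (0.111).

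Cacna2d2 encodes alpha2delta-2, the subunit whose loss causes the ataxia and seizures of the ducky mouse. It was highest in PV basket cells, from 119 through a median of 146 to 241 CPM over 16 libraries. Long-projecting libraries followed, from 43.9 through a median of 69.1 to 139 CPM, then Martinotti libraries at 48.9, 38.5, 25.9 and 58.9 CPM and upper chandelier libraries at 21.8, 14.5, 49.1, 58.3 and 24.1 CPM. In the remaining 3 types it was low: deep chandelier libraries held 9.29, 4.60, 18.2 and 1.10 CPM, CCK basket libraries 0.254, 0, 2.58 and 4.08 CPM, and interneuron-selective libraries 0, 1.49, 0 and 0 CPM. The PV basket mean was 166 ± 0.308 CPM and the long-projecting mean 80.6 ± 11.3 CPM, so the SD between the 2 PV basket replicates was far smaller than the range over their libraries. The replicates of neighbouring types in this order did not overlap, except between CCK basket and interneuron-selective cells. Libraries of neighbouring types did overlap, such as long-projecting libraries at up to 139 CPM and PV basket libraries from 119 CPM. The lowest Martinotti replicate (43.3 CPM) and the highest upper chandelier one (41.6 CPM) lay close.

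In the test of each type against the other 6, Cacna2d2 was higher in PV basket cells (log2 4.14 ± 0.49, adjusted p 0.000461) and in long-projecting cells (log2 3.06 ± 0.44, adjusted p 0.000367). These fitted values average the other types on the log scale, where the near-zero types weigh heavily. As a ratio of mean CPM, PV basket cells stood 6.04-fold and long-projecting cells 1.93-fold over the mean of the other 6 type means. The gene was lower in interneuron-selective cells (adjusted p 0.00491) and in CCK basket cells (log2 -3.43 ± 0.86, adjusted p 0.0292). Interneuron-selective cells gave 1 count in 3099332, which is 0.323 CPM with a 95% exact Poisson interval of 0.00817 to 1.80 CPM that covers counting error only, and CCK basket cells gave 17 counts in 11155186, or 1.52 CPM with an interval of 0.888 to 2.44 CPM. The interneuron-selective call was lost without interneuron-selective replicate 2 (adjusted p 0.0563) and with the spread weighted by type (0.0590), and held without interneuron-selective library 3 (0.00699). The CCK basket call was lost without CCK basket replicate 1 (adjusted p 0.101), interneuron-selective replicate 1 (1.00), PV basket replicate 1 (0.0536) or PV basket replicate 2 (0.0528), and with the spread weighted by type (0.0914).

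Among single cells, all 127 PV basket cells held a Cacna2d2 count, at a median of 159 CPM per cell and a median depth of 130761 counts. No count was found in 62 of 63 interneuron-selective cells (median depth 42258 counts) or in 51 of 64 CCK basket cells, although the latter were the deepest of the 7 types with a median of 155732 counts per cell.

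Cacna2d3 encodes alpha2delta-3, which in mice has been tied to hearing and to pain processing. It showed the reverse order at one end: PV basket cells had the lowest mean (30.7 ± 2.59 CPM). Their libraries ran from 16.6 through a median of 26.8 to 51.9 CPM. Deep chandelier libraries came next at 248, 23.8, 63.0 and 277 CPM (143 ± 3.93). Each of the 2 deep chandelier animals supplied a high and a low library, so their replicate means lay close together. The other 5 types had means of 349 to 601 CPM with replicates that overlapped between neighbours: interneuron-selective 349 ± 66.3, CCK basket 377 ± 160, upper chandelier 441 ± 188, Martinotti 548 ± 164 and long-projecting 601 ± 114 CPM.

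Against the other 6 types, Cacna2d3 was lower in PV basket cells (log2 -3.64 ± 0.36, adjusted p 0.000138). It was higher in long-projecting cells (1.50 ± 0.19, adjusted p 0.000145), whose libraries ranged from 369 through 592 to 812 CPM, and in Martinotti cells (1.17 ± 0.25, adjusted p 0.0138), whose libraries held 560, 321, 594 and 723 CPM. The Martinotti call was lost without Martinotti replicate 2 (adjusted p 0.237), without deep chandelier library 1 (0.0704) and with the spread weighted by type (0.104). Without long-projecting library 2, which carried oligodendrocyte RNA, the long-projecting value was 1.46 (adjusted p 0.000189), and the other 3 calls in long-projecting cells also held.

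**Figure D2:**
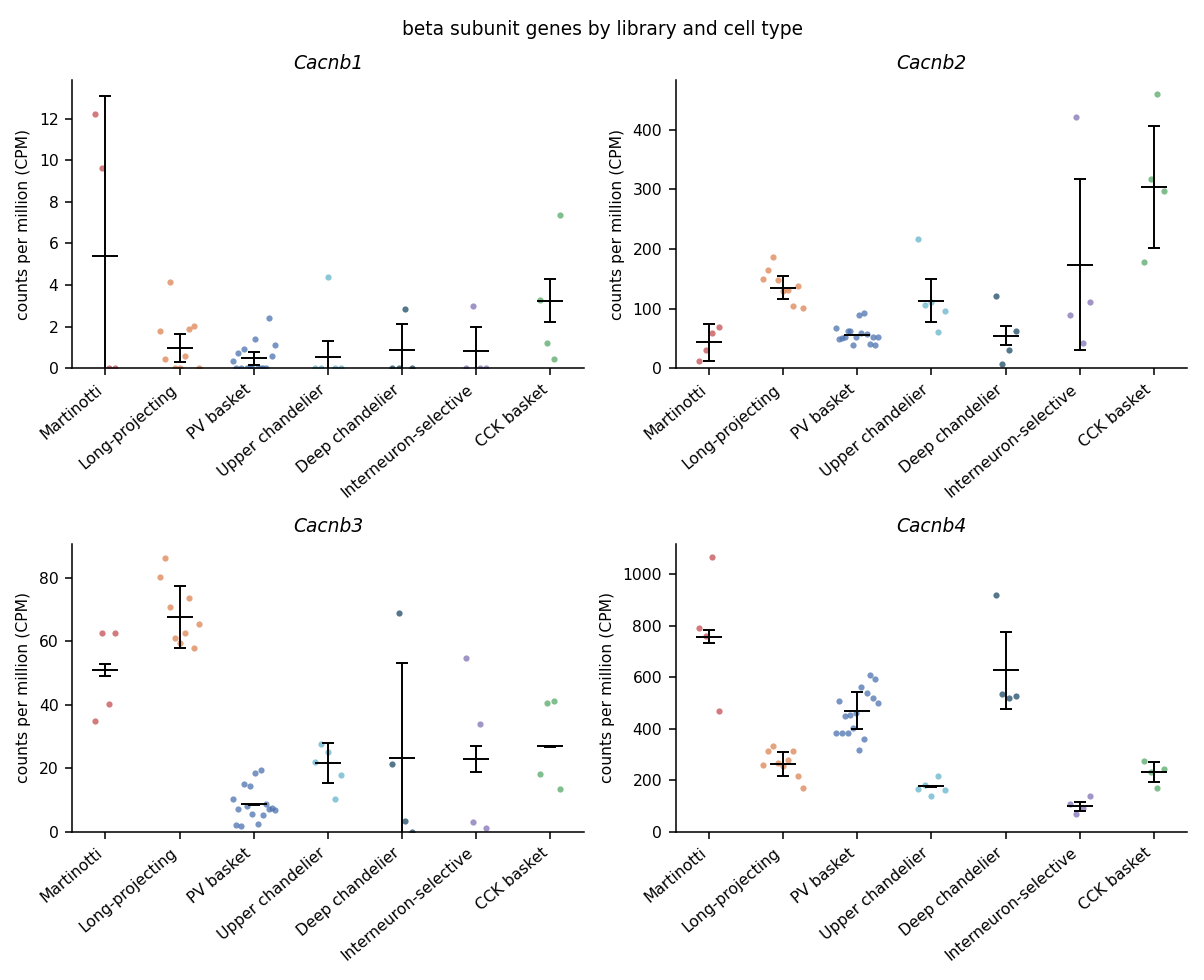
Levels of the 4 beta genes in CPM (vertical axis, linear, own scale per gene) in each type. Points are libraries, and bars are the mean ± SD over replicates (n = 4 in long-projecting cells, n = 2 in the others). Cacnb4 was highest in Martinotti, deep chandelier and PV basket libraries, of which 1 PV basket library lay below the highest long-projecting library, Cacnb2 was highest in CCK basket cells, and Cacnb1 lay at or near 0.

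Cacnb4 encodes the beta4 subunit, whose loss causes the ataxia and absence seizures of the lethargic mouse. Martinotti libraries held 792, 761, 1069 and 467 CPM (mean 757 ± 25.6), deep chandelier libraries 918, 533, 519 and 527 CPM (627 ± 149), and PV basket libraries 319 to 608 CPM with a median of 456 (470 ± 71.2). The other types were lower, with long-projecting libraries from 168 through 268 to 332 CPM (262 ± 46.6), CCK basket libraries at 275, 231, 168 and 242 CPM (232 ± 37.4), and upper chandelier libraries at 165, 182, 139, 216 and 160 CPM (175 ± 2.44). Interneuron-selective libraries were lowest at 106, 68.4, 90.2 and 138 CPM (97.8 ± 17.9). Every library of the 3 high types except 1 PV basket library lay above every library of the 4 low types, whose highest was a long-projecting library at 332 CPM. Only long-projecting and CCK basket cells, neighbours in this order, had overlapping replicates. Gaps between the 3 high types were narrow. The lowest Martinotti replicate held 739 CPM and the highest deep chandelier one 732 CPM. The lowest deep chandelier replicate held 522 CPM and the highest PV basket one 520 CPM. No direct test was made between these 3 types.

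In the tests against the other 6 types, Cacnb4 was higher in Martinotti cells (log2 1.48 ± 0.18, adjusted p 0.000291) and in deep chandelier cells (1.48 ± 0.18, adjusted p 0.000227), and lower in interneuron-selective cells (-2.11 ± 0.25, adjusted p 0.000286). Each of these 3 calls held in all 16 fits that left out a single replicate. The deep chandelier value was 1.52 without library 4 (adjusted p 0.000142) and 1.42 without library 1 (0.000397), and the interneuron-selective value was -1.95 without library 3 (0.000882). PV basket cells were higher by 0.71 ± 0.20 without passing (adjusted p 0.0628). The lower level in upper chandelier cells (-1.02 ± 0.23, adjusted p 0.0348) was a marginal call: it held without upper chandelier library 1 (-1.02, 0.0327), but was lost without deep chandelier library 1 (0.0555) and in 6 of 16 fits without a single replicate, those without long-projecting replicates 1 or 2 (0.0602 and 0.0601), PV basket replicates 1 or 2 (0.0676 and 0.0758) or upper chandelier replicates 1 or 2 (0.274 and 0.358).

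Cacnb2 encodes beta2, the main beta subunit of the heart, which is also made in brain. CCK basket libraries held 178, 318, 460 and 297 CPM (304 ± 103). Interneuron-selective libraries spread widely, at 89.1, 422, 43.0 and 111 CPM (174 ± 144), and long-projecting libraries lay between 102 and 186 CPM (135 ± 19.4). Upper chandelier libraries held 217, 106, 111, 61.2 and 95.3 CPM (113 ± 35.9), PV basket libraries 38.6 to 92.6 CPM (56.0 ± 0.255), deep chandelier libraries 122, 6.90, 31.0 and 62.2 CPM (54.7 ± 16.5), and Martinotti libraries 11.5, 30.9, 58.9 and 69.7 CPM (43.4 ± 30.4). Replicates overlapped between neighbours in this order except between upper chandelier and PV basket cells. Against the other 6 types Cacnb2 was higher in CCK basket cells (log2 1.95 ± 0.37, adjusted p 0.00589), and the call was lost without CCK basket replicate 2 (0.127). In interneuron-selective cells it differed by 0.66 ± 0.41 and did not pass (adjusted p 0.344).

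Cacnb3 encodes beta3, a beta subunit of neurons and smooth muscle. All 9 long-projecting libraries lay between 58.0 and 86.2 CPM (67.7 ± 9.78), and Martinotti libraries at 34.8, 62.6, 40.2 and 62.6 CPM (51.1 ± 1.95). Lower values were found in CCK basket (26.9 ± 0.130), deep chandelier (23.2 ± 29.9), interneuron-selective (22.9 ± 4.04) and upper chandelier cells (21.6 ± 6.34). PV basket cells had the lowest mean, with libraries at 1.69 to 19.4 CPM (8.59 ± 0.135). Interneuron-selective libraries spread widely, at 54.6, 2.97, 33.9 and 1.24 CPM, with a high and a low library in each animal. Deep chandelier libraries held 21.4, 69.0, 3.44 and 0 CPM. The gene was higher in long-projecting cells against the other 6 types (log2 1.66 ± 0.45, adjusted p 0.0262). That call was lost without any 1 of the 4 long-projecting replicates (adjusted p 0.0638 to 0.104), PV basket replicate 1 (0.0501), upper chandelier replicate 2 (0.0516) or deep chandelier library 1 (0.0883).

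Cacnb1 encodes beta1, the beta subunit of skeletal muscle channels, which also has brain forms. It gave 142 counts in all 584 cells together and a count in 84 of them. Martinotti libraries 1 and 2, from the same animal, held 12.2 and 9.63 CPM while libraries 3 and 4 held none, and no type mean exceeded 5.42 CPM. CCK basket libraries held 3.30, 1.23, 0.429 and 7.35 CPM (mean 3.24 ± 1.04), and the means of the other 5 types were 0.476 to 0.966 CPM. No comparison called it, and at this depth most types were near the limit that 3 counts over a type would set (0.143 to 0.968 CPM). The counts of Cacnb1, Cacnb2 and Cacnb4 were not whole in 15.5%, 71.5% and 45.5% of the cells with a count. Those of the other 4 genes were whole in every cell, within a tolerance of 1e-06. No source used here says what the fractions stand for.

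**Figure D3:**
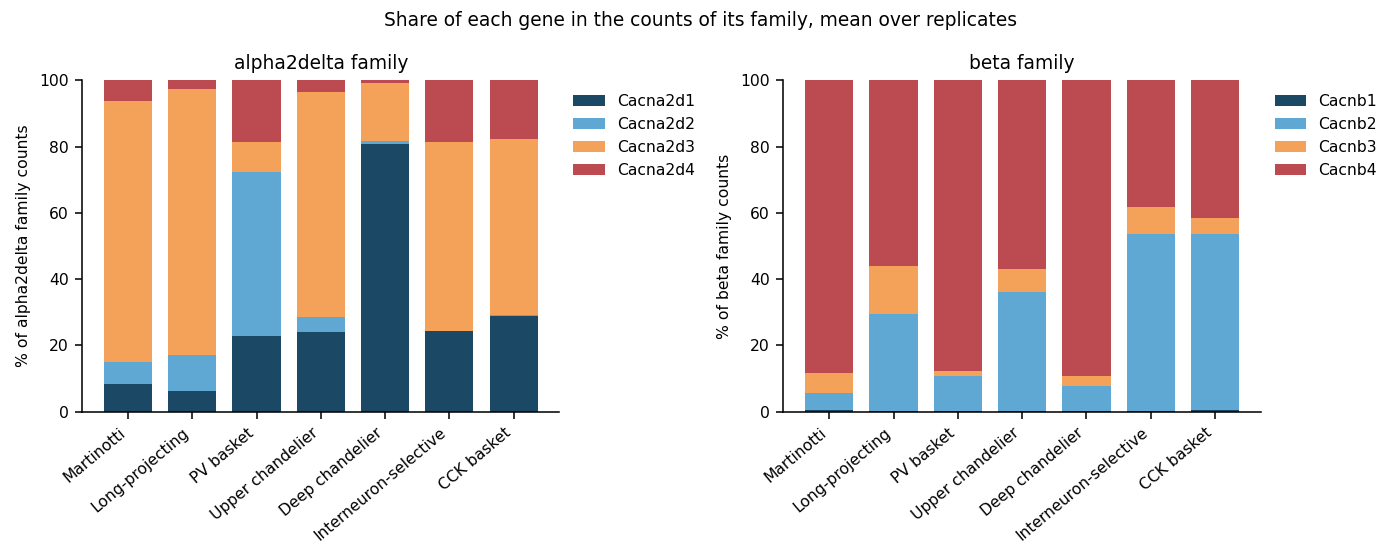
Share of each gene in the summed counts of its family (vertical axis, percent), as the mean over the replicates of a type. The left panel covers the 4 alpha2delta genes with Cacna2d4 and the right panel the 4 beta genes. Cacna2d1 made up 80.6% of alpha2delta counts in deep chandelier cells, and Cacnb4 87.7% to 89.3% of beta counts in Martinotti, PV basket and deep chandelier cells.

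Within each family, the share of the counts that each gene supplied differed from type to type. The fourth alpha2delta gene, Cacna2d4, known for its role in photoreceptors, was added here, and shares are of counts without correction for transcript length, so each is compared across types only. Cacna2d1 made up 80.6% ± 3.24 of alpha2delta counts in deep chandelier cells and 6.23% to 28.8% in the other types. Cacna2d2 made up 49.5% ± 4.86 in PV basket cells and at most 10.9% elsewhere. Cacna2d3 made up 80.2% ± 3.50 in long-projecting and 78.9% ± 6.78 in Martinotti cells, 53.2% to 67.9% in upper chandelier, interneuron-selective and CCK basket cells, 17.4% in deep chandelier and 9.13% in PV basket cells. The summed alpha2delta level was 337 ± 33.7 CPM in PV basket cells and 612 to 830 CPM in the others.

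In the beta family, Cacnb4 made up 87.7% to 89.3% of counts in Martinotti, PV basket and deep chandelier cells. It made up 57.0% ± 7.28 in upper chandelier, 56.0% ± 4.07 in long-projecting, 41.7% ± 11.5 in CCK basket and 38.3% ± 23.1 in interneuron-selective cells, while Cacnb2 made up 53.0% ± 11.9 in CCK basket and 53.2% ± 25.1 in interneuron-selective cells. Without correction for transcript length these shares do not rank the 2 genes within a type. In counts, neither gene was the larger in both replicates of either type. In interneuron-selective cells the Cacnb2 counts exceeded those of Cacnb4 only in library 2, at 422 against 68.4 CPM. The summed beta level ran from 295 ± 131 CPM in interneuron-selective to 857 ± 0.998 CPM in Martinotti cells. No test was made of these shares.

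**Figure D4:**
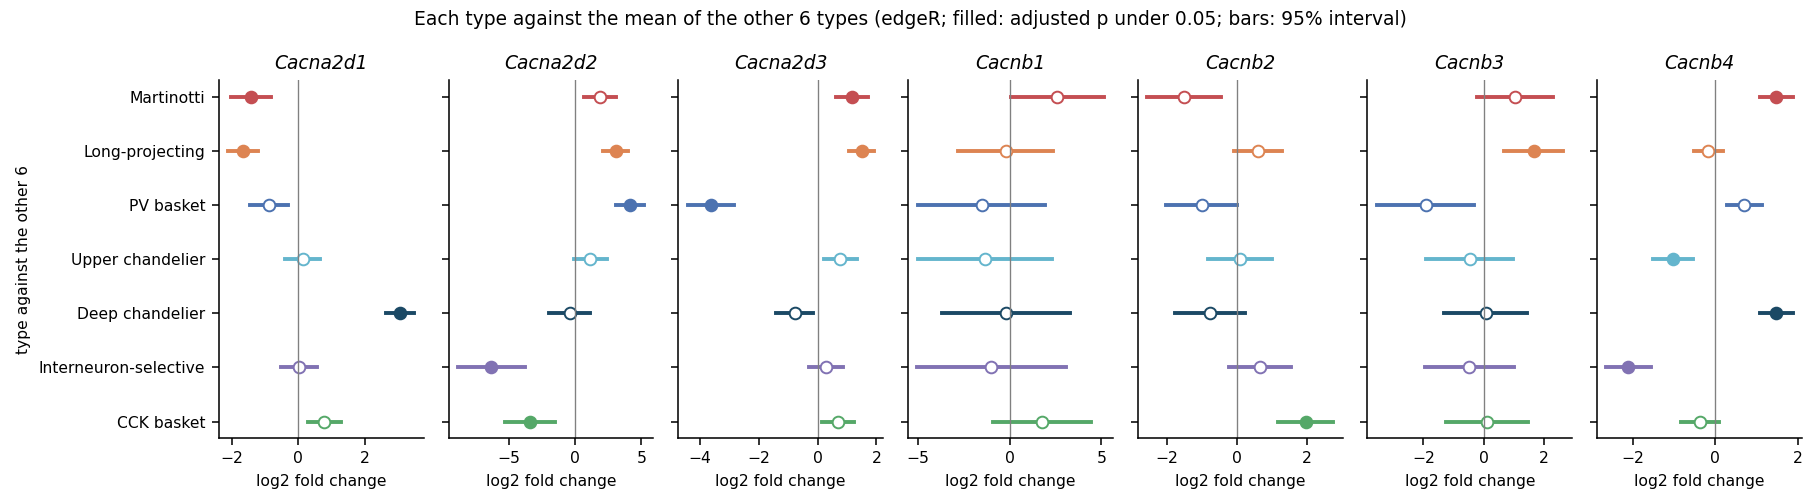
Fitted log2 fold change of each type against the mean of the other 6 types (horizontal axis, own scale per gene), for the 7 genes. Lines are 95% intervals derived from the test statistic, and filled points passed an adjusted p of 0.05 in edgeR. Cacna2d2 and Cacnb4 were called in 4 types each, and Cacnb1 in none.

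Read by type, the alpha2delta and beta genes gave each population a different set of calls against the mean of the other 6. Several of these calls were lost in some refits, as given above. They were Cacna2d1 and Cacna2d3 in Martinotti, Cacna2d2 in interneuron-selective and Cacnb3 in long-projecting cells. Cacnb4 in upper chandelier cells and each CCK basket call were also lost in some. In Martinotti cells 2 of 7 were higher (Cacna2d3 and Cacnb4), where 3.91% of all genes were called higher, and 1 was lower (Cacna2d1, background 1.69%). Long-projecting cells had 3 higher (Cacna2d2, Cacna2d3 and Cacnb3, background 9.71%) and 1 lower (Cacna2d1, 3.41%). In PV basket cells 1 was higher (Cacna2d2, 2.78%) and 1 lower (Cacna2d3, 1.11%). Deep chandelier cells had 2 higher (Cacna2d1 and Cacnb4, 12.3%) and none lower (6.79%), and upper chandelier cells none higher (1.56%) and 1 lower (Cacnb4, 0.341%). Interneuron-selective cells had none higher (5.72%) and 2 lower (Cacna2d2 and Cacnb4, 4.29%), and CCK basket cells 1 higher (Cacnb2, 5.22%) and 1 lower (Cacna2d2, 1.08%). The median log2 fold change of the 7 genes was 1.17 in Martinotti cells against 0.01 over all genes, 0.70 in CCK basket cells against 0.04, and 0.59 in long-projecting cells against 0.10. It was 0.09 in upper chandelier cells against 0.05, -0.23 in deep chandelier cells against -0.08, -0.48 in interneuron-selective cells against -0.03, and -1.01 in PV basket cells against 0.09.

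The 7 types fall into those that arise in the medial ganglionic eminence of the embryo (Martinotti, long-projecting, PV basket and both chandelier types) and those that arise in the caudal one (interneuron-selective and CCK basket). Between these lineages 2 of 7 genes were higher in the medial types (background 4.73%) and 1 was lower (background 5.68%). Cacna2d2 averaged 65.7 CPM over the 5 medial type means (9.33 to 166) and 1.08 CPM over the 2 caudal ones (0.415 and 1.75), with an adjusted p of 0.000206. Cacnb4 averaged 458 CPM in medial types (175 to 757) and 165 CPM in caudal types (97.8 and 232), a log2 difference of 1.49 ± 0.18 (adjusted p 0.000121). Cacnb2 was lower in medial types, at 80.5 against 239 CPM (-1.57 ± 0.31, adjusted p 0.00552), and this call was lost without interneuron-selective replicate 1 (adjusted p 0.0622). The difference in Cacnb4 rests on the order described above, in which upper chandelier cells, a medial type, lay below CCK basket cells. P-values of this contrast measure the spread between replicates of a type, not the spread between the types of a lineage.

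Direct comparisons were made between 6 pairs of types. Martinotti and interneuron-selective cells were sequenced on the same flow cell and come from females of near age. Of the 7 genes 2 were higher in Martinotti cells (background 1.68%) and none lower (1.41%). Cacnb4 differed by 3.08 ± 0.30 on the log2 scale (adjusted p 0.000120), and Cacna2d2, with 361 counts against 1, had an adjusted p of 0.00855. That call was lost without interneuron-selective replicate 2 (0.0686), with the spread weighted by type (0.0733) and when only these 2 types were fitted (0.114). Upper chandelier and long-projecting cells also shared a flow cell, but differed in sex and age. Of the 7 genes 1 was higher in upper chandelier cells (background 2.06%) and none lower (2.02%): Cacna2d1, by 1.53 ± 0.27 (adjusted p 0.00489), or by 1.34 without the Vip-carrying upper chandelier library 1 (0.0138). The call was lost without upper chandelier replicate 2 (0.0709).

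The remaining pairs did not share a flow cell. Between the 2 Sst types, 1 gene was higher in Martinotti than in long-projecting cells (background 1.78%) and none lower (2.09%). This was Cacnb4, by 1.42 ± 0.23 on the log2 scale (adjusted p 0.00366), and the call held in all 16 fits without a single replicate. The 2 Vip types differed in 1 gene, Cacnb4, higher in CCK basket cells by 1.50 ± 0.28 (adjusted p 0.0257, background 1.02%), with none lower (0.328%). That call was lost when only these types were fitted (0.375), with the spread weighted by type (0.297), without deep chandelier library 1 (0.0599), and without long-projecting replicates 1 or 2 (0.0540 and 0.0562), interneuron-selective replicate 1 (0.0899) or CCK basket replicate 1 (0.0797). PV basket cells, set against upper chandelier cells as another Pvalb-expressing type, had 1 gene higher (Cacnb4, background 0.135%) and 1 lower (Cacna2d3, background 0.264%). The Cacna2d3 difference of -3.78 ± 0.40 (adjusted p 0.000776) held in all 16 fits without a single replicate. The Cacnb4 difference of 1.48 ± 0.28 (adjusted p 0.0330) was lost in 8 of them, those without either PV basket replicate (0.247 and 0.363), either upper chandelier replicate (0.248 and 0.338) or any 1 of the 4 long-projecting replicates (0.0566 to 0.0723), and also without deep chandelier library 1 (0.0973) or interneuron-selective library 3 (0.0509).

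Chandelier cells of the 2 depths carried the same driver and, apart from the upper library labelled Ai15, the same reporter, and differed in sex, age and flow cell. None of the 7 genes was higher in upper than in deep chandelier cells (background 1.76%) and 2 were lower (1.08%): Cacna2d1 by -2.51 ± 0.34 on the log2 scale (adjusted p 0.00320) and Cacnb4 by -2.15 ± 0.28 (adjusted p 0.00246). For Cacnb4 every upper library (139 to 216 CPM) lay below every deep library (519 to 918 CPM). For Cacna2d1 the upper libraries (108 to 229 CPM) lay below deep libraries 1 to 3 (543 to 974 CPM) and above deep library 4 (63.1 CPM). Without that library the Cacna2d1 difference was -2.90 (adjusted p 0.00181), and without upper chandelier library 1 it was -2.73 (0.00240). The Cacnb4 difference was -2.23 without deep library 4 (0.00244), -2.10 without deep library 1 (0.00707) and -2.15 without upper library 1 (0.00253). The Cacna2d1 call was lost without upper chandelier replicate 2 (0.0508), and neither gene passed when only the 2 chandelier types were fitted (0.296 for each).

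**Figure D5:**
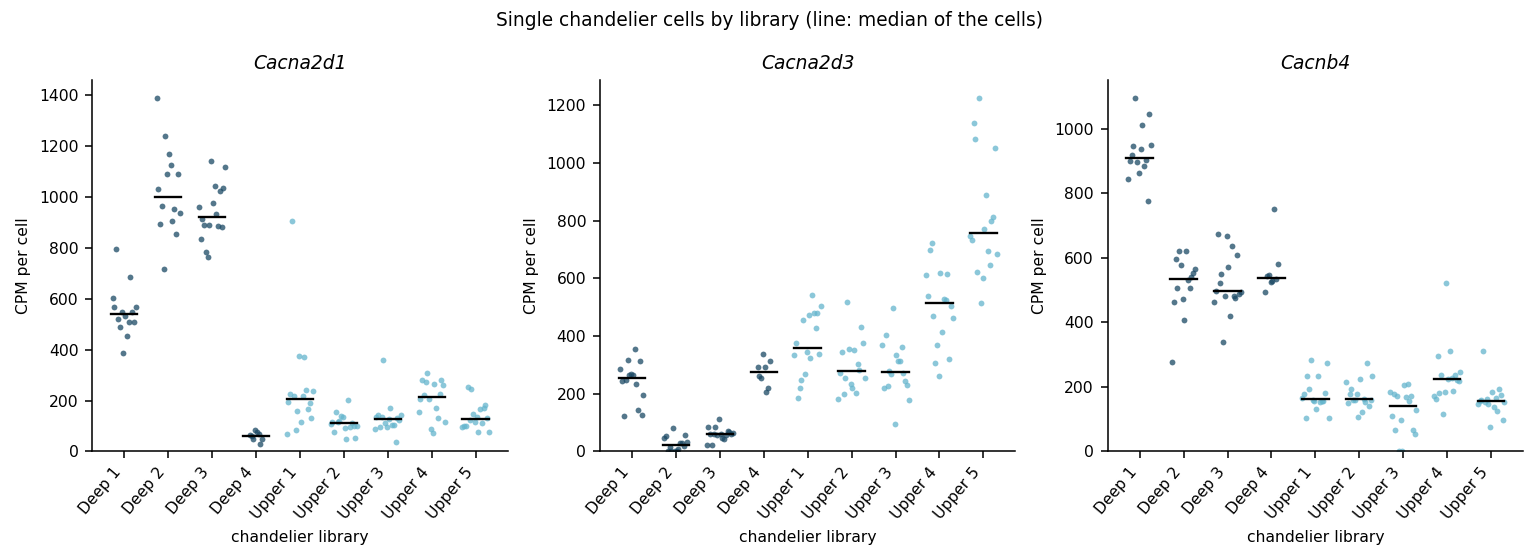
Levels in single chandelier cells in CPM (vertical axis, linear) by library, for Cacna2d1, Cacna2d3 and Cacnb4. Points are cells and lines the median of a library's cells. All 8 cells of deep library 4 lay at 27.4 to 83.9 CPM of Cacna2d1, below all cells of deep libraries 1 to 3.

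The single cells behind these libraries moved with their library. In deep chandelier library 4 all 8 cells lay between 27.4 and 83.9 CPM of Cacna2d1, whereas the lowest of the cells in libraries 1 to 3 held 388 CPM and the highest 1391 CPM. In the same way, Cacnb4 was at 775 to 1095 CPM in the 14 cells of deep library 1 and at 278 to 752 CPM in the cells of the other 3, and the median Cacna2d3 was 255 and 275 CPM per cell in deep libraries 1 and 4 against 23.5 and 60.1 CPM in libraries 2 and 3. Of the spread of log2(CPM + 1) between deep chandelier cells, 96.6% for Cacna2d1, 72.9% for Cacnb4 and 65.3% for Cacna2d3 lay between libraries. In the other types the share for Cacna2d1 ran from 1.09% in Martinotti to 36.35% in CCK basket cells. For Cacnb4 it ran from 15.8% in interneuron-selective to 75.8% in Martinotti cells. For Cacna2d3 it ran from 19.0% in PV basket to 85.4% in CCK basket cells, so high shares were not particular to deep chandelier cells. Cells of a library were therefore not counted as replicates, and what makes them alike was not tested.

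The pore-forming subunits, the proteins the auxiliary subunits attach to, were set beside these genes. Calls on these and on the further gene lists below were not checked in refits, unlike those on the 7 genes. Of 10 alpha1 genes 8 passed the filter and 3 differed between types in the joint test, which called 25.0% of all genes: Cacna1e, Cacna1g and Cacna1h. Cacna1e, the R-type pore, was higher in long-projecting cells (278 ± 19.1 CPM, log2 3.46, adjusted p 4.26e-06) and Martinotti cells (92.8 ± 31.9 CPM, log2 1.43, adjusted p 0.0426) and lower in PV basket cells (5.86 ± 2.55 CPM, -3.18, adjusted p 0.00608) and upper chandelier cells (10.0 ± 3.92 CPM, -2.33, adjusted p 0.0385). Cacna1g, a T-type pore that works without auxiliary subunits in cell systems, was lower in PV basket cells (5.10 ± 0.790 CPM, -3.82, adjusted p 0.000255) and higher in upper chandelier cells (114 ± 6.96 CPM, 1.33, adjusted p 0.0280) and CCK basket cells (91.5 ± 27.2 CPM, 1.15, adjusted p 0.0259). Cacna1h, another T-type pore, was higher in interneuron-selective cells (36.6 ± 40.0 CPM, 4.17, adjusted p 0.00659), where its SD exceeded its mean. The P/Q-type gene Cacna1a (adjusted p 0.123) and the N-type gene Cacna1b (0.0755), whose channels carry most release-site calcium, did not pass the joint test, and were named after their values were seen.

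Among 9 genes of the gamma family together with Cacna2d4, 8 were tested and 6 differed in the joint test, against 25.0% of all genes: Cacng2, Cacng3, Cacng4, Cacng5, Cacng8 and Cacna2d4. Cacna2d4 was higher in CCK basket (130 ± 78.7 CPM, log2 2.13, adjusted p 0.00390) and interneuron-selective cells (115 ± 23.0 CPM, 1.63, adjusted p 0.0183) and lower in deep chandelier cells (7.06 ± 1.00 CPM, -2.61, adjusted p 0.00609). Its CCK basket libraries held 106, 314, 63.5 and 84.5 CPM, against 22.9 to 122 CPM in PV basket libraries. It was lower in medial than caudal types (-2.26, adjusted p 0.000460), which is the opposite direction to Cacna2d2. Cacng3, a gamma protein that acts on AMPA receptors, was higher in Martinotti cells (281 ± 72.6 CPM, 3.08, adjusted p 0.000747) and long-projecting cells (140 ± 38.4 CPM, 2.07, adjusted p 0.00183) and lower in interneuron-selective cells (6.79 ± 2.14 CPM, -3.39, adjusted p 0.0115). In Martinotti cells 4 of the 8 genes were higher (Cacng3, Cacng4, Cacng5 and Cacng8, background 3.91%) and none lower (1.69%), with a median log2 fold change of 2.22 against 0.01 over all genes.

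Of 12 proteins that bind beta subunits or act on the channel through them or beside them, 11 were tested and 4 differed in the joint test, against 25.0% of all genes: Rem2, Rims1, Stac and Stac2. Rims1, an active-zone scaffold that binds beta subunits, was higher in deep chandelier cells (555 ± 39.4 CPM, log2 1.19, adjusted p 0.00699) and was lower in upper than in deep chandelier cells (-1.82, adjusted p 0.0302), the same direction as Cacnb4. Stac2 was higher in Martinotti cells (91.0 ± 41.2 CPM, 2.10, adjusted p 0.00858) and PV basket cells (70.0 ± 0.810 CPM, 1.71, adjusted p 0.0320) and lower in long-projecting cells (5.02 ± 1.13 CPM, -2.62, adjusted p 0.000948). The related Stac was higher in long-projecting cells (39.0 ± 20.3 CPM, 4.32, adjusted p 8.05e-05), as was Rem2, a small GTPase that restrains calcium current (18.9 ± 10.4 CPM, 4.26, adjusted p 0.00107).

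Of 10 genes for partners of alpha2delta subunits (thrombospondins, neurexins and others), 8 were tested and 5 differed in the joint test, against 25.0% of all genes, among them Nrxn2 and Nrxn3. Between lineages 1 was higher in medial types (background 4.73%) and 4 were lower (5.68%), with a median log2 difference of -1.11 against 0.03 over all genes. Nrxn2, a presynaptic adhesion protein of the neurexin family, stood at 993 ± 111 CPM in interneuron-selective and 681 ± 179 CPM in CCK basket cells and at 212 to 678 CPM in the 5 medial types (log2 -1.35 between lineages, adjusted p 4.61e-05). Its highest medial mean, in Martinotti cells, lay beside that of CCK basket cells. Nrxn3 differed in the same direction (-0.81, adjusted p 0.00102). Oligodendrocyte markers were higher in interneuron-selective cells (7 of 8 tested, background 5.72%) and in long-projecting cells (4 of 8, background 9.71%). Their summed level was 3051 CPM in interneuron-selective library 3 and 4349 CPM in long-projecting library 2. The medians over the libraries of these types were 121.8 and 115.5 CPM. Between lineages 2 of 6 astrocyte and 2 of 5 microglia markers were lower in medial types (background 5.68%). Astrocyte markers summed to a median of 360 CPM in interneuron-selective and 249 CPM in CCK basket libraries, against 43.7 to 165 CPM in the medial types. The part of these markers in the lineage differences, those of the subunit genes included, was not tested.

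The genes whose level over the 16 replicates was most like that of each auxiliary subunit were found by Pearson correlation of log2(CPM + 1), over about 4455 genes with a mean of type means of at least 50 CPM. These are descriptions of 16 points that share libraries and depth. For Cacna2d1 they included Ogt (r = 0.929) and Pank2 (0.900), and Ogt, a sugar transferase acting on many proteins, averaged 389 CPM in deep chandelier cells against 66.1 to 220 CPM elsewhere. For Cacna2d2 they were Ndufab1 (0.926), Atp6ap2 (0.908) and Tmsb4x (0.900), and for Cacna2d3 Tagln3 (0.917), Ptprn (0.881) and Basp1 (0.862), with Tagln3 at 49.1 CPM in PV basket and 591 CPM in long-projecting cells. The closest gene to Cacnb2 was Hmgn2 (0.886), to Cacnb3 Nell1 (0.896), to Cacnb4 Rcan2 (0.864) and to Cacnb1 Uchl3 (0.756). Among the 7 genes themselves, r was highest between Cacnb3 and Cacna2d3 (0.677) and lowest between Cacnb4 and Cacnb2 (-0.672).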

How the data were processed

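The authors deposited 1 table of expected counts, with 23335 genes as lines and 584 cells as columns. Reads had been aligned with Bowtie 0.12.7 to mm9, per the submitters' processing notes. Of the values above 0, 4.07% were not whole, and no source used here says whether a count is a read or a molecular tag. No column was left unused.

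Cells were summed per library and per animal and rounded. PV basket animals 7 and 8, and 9 and 10, were summed as 1 replicate each: 8 of 190 pairs of libraries of a type, all PV basket pairs of a male with a female, differed by only 1.22 to 1.72 times the variance expected from sampling, and all other pairs by at least 5.38 times. Both libraries of such a pair had the same index sequence on neighbouring lanes. Whether they hold the same cells was not tested, so PV basket libraries and cells may not all be distinct. Summing these animals left 16 replicates. The summed counts were tested in R 4.3.3 with edgeR 4.0.16 (TMM, filterByExpr by type, robust quasi-likelihood fit). P-values were adjusted by Benjamini-Hochberg over the 15533 genes kept, and a call needs an adjusted p under 0.05. The dispersion of 0.381 stands for a coefficient of variation between replicates of 61.7%. A joint test and 14 contrasts were taken from 1 fit. Alternatives used DESeq2 1.42.0 and limma 3.58.1. P-values measure the spread between these samples within types, in the lineage contrast too. All types shared 1 estimate of this spread per gene, so a p-value does not measure the spread of a single type. Pairs of deep chandelier libraries differed by 72.7 to 114 times the variance expected from sampling, and pairs of long-projecting libraries by 5.38 to 25.2 times. CPM use total counts, without TMM factors (0.836 to 1.19).

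Members and gene lists were chosen with earlier results of these data known. All members are named. Of the listed genes, some of those that passed the joint test are described, together with Cacna1a and Cacna1b, and for each member the 3 genes of highest correlation were found. Some listed genes are not reported here. Sequences and coordinates were not used here.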

Additional observations from a re-analysis of the deposited data

Results flagged for a closer look

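In 49 sets of 4 to 9 libraries or animals (1 gene in 1 type), 6 held a sample that stood apart by Dixon's test at the 95% level, and chance marks about 1 set in 20. Cacnb4 in deep chandelier library 1 was 918 CPM, where the other 3 libraries lay between 519 and 533 CPM, and this library also held no Pvalb count. Without it the deep chandelier mean of Cacnb4 was 528 ± 8.00 CPM and the log2 fold change against the other 6 types 1.42 (adjusted p 0.000397).

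The other 5 are single libraries with a few counts beside libraries at or near 0. Where all others are at 0 the test marks any value above 0, so the chance rate given above does not apply. Cacna2d2 was 1.49 CPM in interneuron-selective library 2 and 0 in the other 3. Cacnb1 was 2.97 CPM in that same library, 2.87 CPM in deep chandelier library 3 and 4.36 CPM in upper chandelier library 3, with 0 in all other libraries of these types. In long-projecting library 3 Cacnb1 was 4.16 CPM, against 0 to 2.04 CPM in the other 8.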

How the results depend on the processing

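In 966 refits of 33 called results, 913 kept the direction and the call, 53 kept the direction and lost the call, and 0 reversed. Of the 33 results, 18 kept their call in every refit. The number of the 7 genes called moved by over 1.5 times as follows. With 18 labelled animals as samples it was 5 in Martinotti cells, 6 in PV basket cells and 2 for Martinotti against long-projecting cells. With the DESeq2 test these were 5, 4 and 2, and Martinotti against interneuron-selective cells had 4. With the spread weighted by type in limma, Martinotti, interneuron-selective and CCK basket cells and Martinotti against interneuron-selective cells had 1 each, PV basket cells 5, upper chandelier against long-projecting cells 3, and CCK basket against interneuron-selective cells 0. With only the 2 types fitted, Martinotti against interneuron-selective cells had 1, upper chandelier against long-projecting cells 4, Martinotti against long-projecting cells 2, and CCK basket against interneuron-selective cells and upper against deep chandelier cells 0. Libraries as samples, which treats libraries of an animal as independent, gave 5 in Martinotti, 6 in PV basket and 2 in upper chandelier cells, 4 for Martinotti against interneuron-selective, 3 for upper chandelier against long-projecting, 2 for Martinotti against long-projecting, 4 for upper against deep chandelier and 5 for PV basket against upper chandelier cells. Fits with labelled animals or libraries as samples also treated the closely agreeing PV basket pairs as independent. With the library number as a replicate block, PV basket cells had 5 and upper chandelier against long-projecting cells 2. Same-numbered libraries of different types correlated at a median of 0.0021 (-0.098 to 0.065), so the number does not pair them. Of the omissions chosen after seeing the data, that of deep chandelier library 1 left 0 in upper chandelier cells, 0 for CCK basket against interneuron-selective and 1 for PV basket against upper chandelier cells. Leaving out interneuron-selective library 3, as planned, left 1 for the last. The cause was not tested.

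Without 1 replicate each, the count ranged from 4 to 6 in the joint test, 1 to 4 in Martinotti, 2 to 4 in PV basket, 1 to 3 in CCK basket, 1 to 2 in interneuron-selective, 2 to 3 in deep chandelier, 0 to 1 in upper chandelier and 3 to 4 in long-projecting cells. It was 2 to 4 between lineages, 2 to 3 for Martinotti against interneuron-selective, 0 to 2 for upper chandelier against long-projecting, 1 to 2 for Martinotti against long-projecting, 0 to 1 for CCK basket against interneuron-selective, 1 to 3 for upper against deep chandelier and 1 to 2 for PV basket against upper chandelier cells. Over all genes the joint test called 3888, and 7080 with DESeq2, 6468 with labelled animals, 2174 with weighted spread and 8678 with libraries as samples. Without a scaling factor the median of all genes in deep chandelier cells moved from -0.08 to -0.32 on the log2 scale. Cacnb1, and Cacna2d2 in caudal types, are limited by depth.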
